A study of Caenorhabditis elegans with 40 samples.

Results

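The eggshell and vitelline layer genes cbd-1, cpg-1, cpg-2, cpg-3, perm-2, perm-4, chs-1, egg-1 and egg-2 were followed through postembryonic development of both sexes of the nematode Caenorhabditis elegans. They were chosen by name for the known place of their proteins in the eggshell or on the oocyte surface, and all 9 had a row among the 11933 genes of the UMI count table. Whole animals were collected at the larval stages L1, L2, L3 and L4 and as young adults (YA). Cultures of the dpy-28(y1);him-8(e1489) strain gave the males and N2 wild-type cultures the hermaphrodites, all grown at 25 °C, with 4 biological repeats for each of the 10 groups (40 libraries). The dpy-28 allele is temperature sensitive and harms XX animals at this temperature, him-8 raises the frequency of XO animals, and some XX animals can remain in such male cultures. Strain and sex therefore cannot be told apart in any comparison between males and hermaphrodites.

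The nematode eggshell is assembled in layers around the newly fertilized oocyte. The vitelline layer already surrounds the oocyte and holds CBD-1, a protein with many chitin-binding domains, together with PERM-2 and PERM-4. After sperm entry the chitin synthase CHS-1 lays down the chitin layer, and the chondroitin proteoglycans CPG-1 and CPG-2 fill the layer beneath it. CPG-3 is a further chondroitin proteoglycan core protein. EGG-1 and EGG-2 are transmembrane proteins of the oocyte surface with LDL receptor repeats, which are needed for sperm to enter. In N2 hermaphrodites the germline first makes sperm in L4 and then switches to oocytes, while the male germline makes only sperm.

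In the WBcel235 genome the genes lie on 3 chromosomes, and all are protein-coding. cbd-1 spans chrIV:11372991-11377627 on the plus strand in 10 exons. perm-2 (chrIV:1126790-1128865, plus strand, 5 exons) and perm-4 (chrIV:1121494-1125107, minus strand, 4 exons) are divergent neighbours, with 1682 bp and 0 annotated genes between their 5′ ends. cpg-1 lies at chrIII:4489359-4491392 (plus strand), cpg-2 at chrIII:7102092-7103990 (minus strand), egg-1 at chrIII:5728180-5730159 (plus strand) and egg-2 at chrIII:7058527-7060583 (minus strand). cpg-3 lies at chrI:7244937-7246295 and chs-1 at chrI:7554855-7559916, both on the plus strand. The 3′ end of chs-1 overlaps T25G3.3 on the same strand by 78 bp, and that of egg-1 overlaps B0244.9 on the opposite strand by 42 bp. The 3′ ends of cpg-3 and perm-2 overlap the opposite-strand genes R06C7.6 and C44B12.6 by 221 bp and 25 bp. No source used here states whether the counting used strand or how it treated reads shared by the related pairs egg-1 and egg-2 or cpg-1 and cpg-2, so these counts are uncertain to that extent.

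Libraries held 1724365 to 14129759 UMI counts (median 5616412), and the L1 male libraries were the shallowest group (median 2803978). Levels are given as CPM (UMI counts relative to library totals, scaled by the trimmed mean of M values, TMM). They come from 3′ ends and are compared between libraries, not between genes. In whole animals, fewer cells of a type and less RNA per cell cannot be told apart. A summed set of 6 male soma markers was at 1052 to 1513 CPM in YA males, and it was at 69.0, 11.1, 15.7 and 60.2 CPM in YA hermaphrodite repeats 1 to 4. YA hermaphrodite repeats 1 and 4 thus carried more male transcripts than repeats 2 and 3, and they were also the shallowest of that group (2479432 and 3533092 counts against 5450105 and 6096830). The sex differences at YA and the changes from L4 to YA in hermaphrodites are therefore given with and without them. In YA hermaphrodites 9 oocyte markers summed to 998, 2695, 2801 and 1499.5 CPM, and in YA males to 163 to 180.1 CPM.

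Eggshell transcripts took up a small share of all counts until L3 and a large one in adult hermaphrodites. The 9 genes together made up 0.00104% to 0.00167% of the counts in L1 libraries of either sex. They reached 0.0723% to 0.0934% in L4 hermaphrodites and 0.529% to 0.859% in YA hermaphrodites. In males they made up 0.00748% to 0.00966% at L4 and 0.0246% to 0.0303% at YA, so the sexes did not overlap at either stage. Of the 9 genes, 7 passed the filter on low counts, and chs-1 and egg-2 did not. A gene can pass that filter through the hermaphrodite L4 or YA libraries alone, so the counts over the 7 tested genes describe them and do not support anything beyond them.

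**Figure D1:**
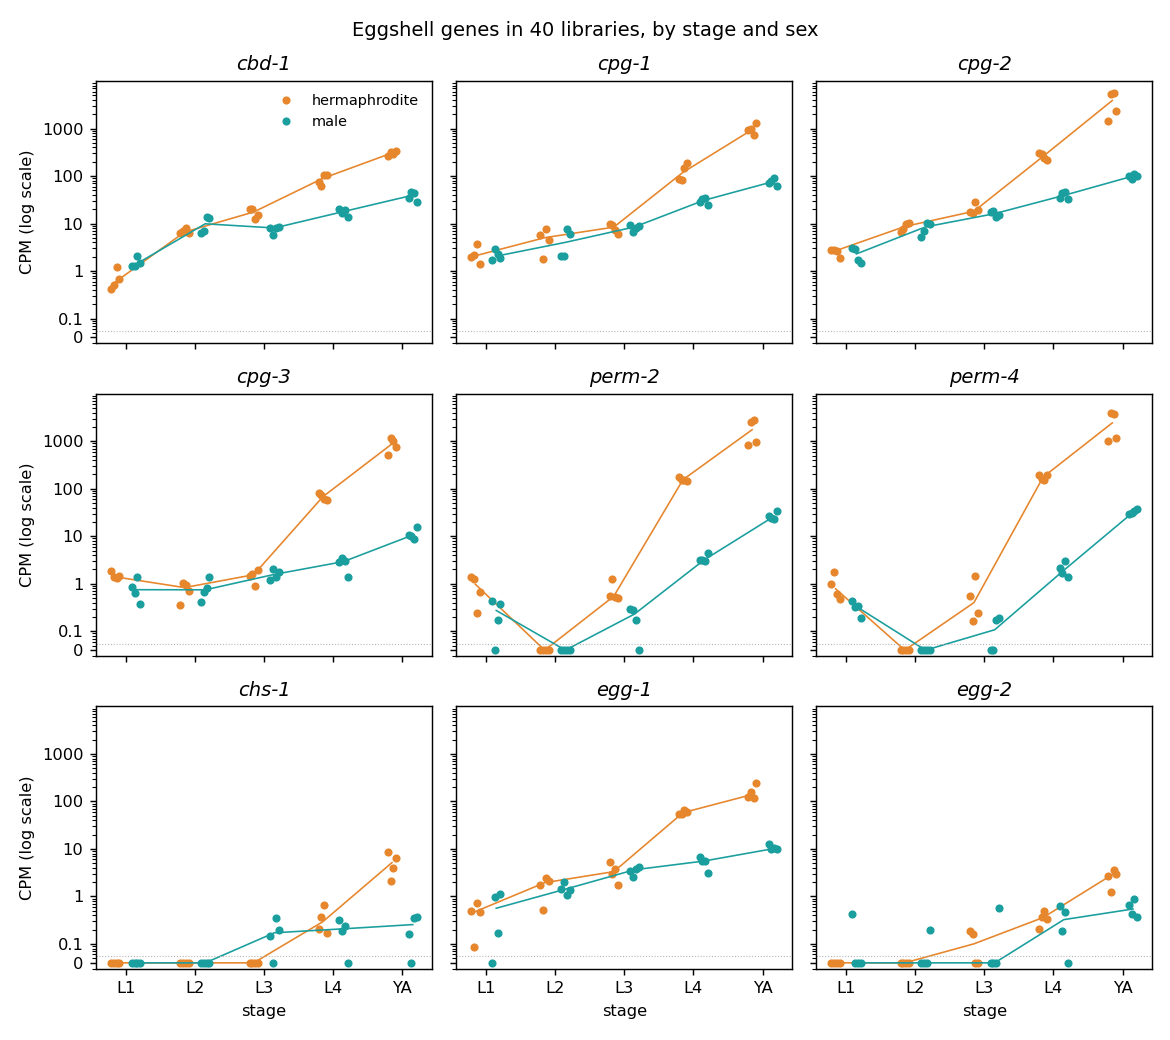
Level of each eggshell gene in all 40 libraries. The vertical axis is TMM-scaled CPM on a log scale with libraries at 0 drawn on the lowest line, the horizontal axis is the stage, points are libraries (orange, hermaphrodites; cyan, males) and lines join the group medians. In every panel but that of egg-2 the YA hermaphrodites are highest and the L4 hermaphrodites second by group mean, and perm-2, perm-4 and chs-1 are at 0 in the 8 L2 libraries.

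The sexes differed most at YA in all tested genes but perm-4, whose log2 fold change was slightly larger in size at L4 (-6.39, SE 0.45) than at YA (-6.21, SE 0.41). This exception lay within the standard errors and turned without YA hermaphrodite repeats 1 and 4 (-6.84 at YA). A gene was called when its adjusted p was at most 0.05, its log2 fold change was at least 1 in size and its mean normalized count was at least 5. This mean was taken over all 40 libraries, so groups outside a comparison enter it. All 7 tested eggshell genes were lower in YA males than in YA hermaphrodites by this rule, where 22.1% of all 8110 genes tested were. Their log2 fold changes (males minus hermaphrodites) ran from -3.0 to -6.23 with a median of -5.21, beside a median of 0.00 over all genes tested. In the fit without hermaphrodite repeats 1 and 4, quoted below, the all-gene median was 0.38. That fit called 1808 genes lower in YA males, against 1791 in the main fit.

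The vitelline layer genes showed the widest range of sex differences at YA. perm-4 stood at 1029.8, 3857, 3706 and 1155 CPM in the 4 hermaphrodite repeats and at 29.9, 30.2, 33.6 and 37.5 CPM in the male ones. Every hermaphrodite library was thus above every male library, although the hermaphrodite repeats fell into a lower pair (1 and 4) and a higher pair (2 and 3). The log2 fold change of perm-4 was -6.21 (SE 0.41, edgeR adjusted p = 4.49e-14), and it was -6.84 (SE 0.25) without hermaphrodite repeats 1 and 4.

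perm-2, which shares an upstream region with perm-4, was at 821, 2530.1, 2801 and 968 CPM in YA hermaphrodites and at 26.3, 24.5, 22.5 and 33.7 CPM in YA males. The same hermaphrodite repeats were low and the sexes did not overlap. Its log2 fold change was -6.06 (SE 0.37, adjusted p = 1.37e-14), and -6.63 (SE 0.23) without repeats 1 and 4.

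cbd-1 differed least among the tested genes. It was at 267, 322, 290.3 and 345 CPM in YA hermaphrodites and at 35.3, 45.4, 43.6 and 28.8 CPM in YA males. The hermaphrodite repeats lay close together here, and repeat 4 was the highest. The log2 fold change of cbd-1 was -3.0 (SE 0.24, adjusted p = 3.86e-13), and -2.99 (SE 0.23) without repeats 1 and 4.

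Among the chondroitin proteoglycans, cpg-2 stood at 1452, 5437, 5568 and 2344 CPM in YA hermaphrodites and at 102, 87.6, 111 and 98.2 CPM in YA males. Its hermaphrodite repeats split into the same pairs as those of perm-2 and perm-4. Its log2 fold change was -5.21 (SE 0.31, adjusted p = 2.87e-16), and -5.78 (SE 0.21) without repeats 1 and 4. cpg-3 was at 502, 1172, 992 and 768 CPM against 10.8, 10.4, 8.83 and 15.6 CPM. Its log2 fold change was -6.23 (SE 0.29, adjusted p = 5.44e-19), and -6.56 (SE 0.22) without those repeats. The estimate of cpg-3 was thus the most negative of the 7 with all repeats, but perm-4 and perm-2 were below it without repeats 1 and 4.

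cpg-1 did not show the split. It was at 933, 960.3, 747 and 1299 CPM in YA hermaphrodites and at 72.8, 79.7, 91.3 and 63.3 CPM in YA males. The highest hermaphrodite value was that of repeat 4, and the groups did not overlap. Its log2 fold change was -3.68 (SE 0.33, adjusted p = 6.78e-12), and -3.47 (SE 0.30) without repeats 1 and 4. The oocyte surface gene egg-1 was at 124, 155, 116 and 246 CPM against 12.7, 9.78, 10.2 and 9.97 CPM. It was likewise highest in repeat 4, and its log2 fold change was -3.91 (SE 0.32, adjusted p = 8.90e-13), and -3.66 (SE 0.29) without those repeats.

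chs-1 and egg-2 had few counts and were compared by exact permutation tests of their CPM. The p-values of these permutation tests, here and below, are not adjusted for the number of tests. chs-1 was at 8.63, 2.16, 3.99 and 6.32 CPM in YA hermaphrodites and at 0.164, 0, 0.346 and 0.362 CPM in YA males. The groups did not overlap, and the two-sided exact permutation p was 0.0286, the smallest that 4 against 4 libraries can give. Without the filter its edgeR log2 fold change was -4.12 (SE 0.65, adjusted p = 7.83e-06), but its mean normalized count of 3.14 over all 40 libraries was below the minimum for a call. DESeq2 on the YA libraries alone gave -4.54 (DESeq2 adjusted p = 2.27e-06).

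egg-2 was at 2.75, 1.23, 3.69 and 3.02 CPM in YA hermaphrodites and at 0.657, 0.431, 0.866 and 0.362 CPM in YA males. These ranges did not overlap either (exact permutation p = 0.0286). Without the filter its log2 fold change was -1.75 (SE 0.63, adjusted p = 0.0224), with a mean normalized count of 2.28 over all 40 libraries. DESeq2 on the YA libraries alone gave -2.10 (DESeq2 adjusted p = 0.00834). In both genes hermaphrodite repeats 2 and 3 were each above every male library.

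**Figure D2:**
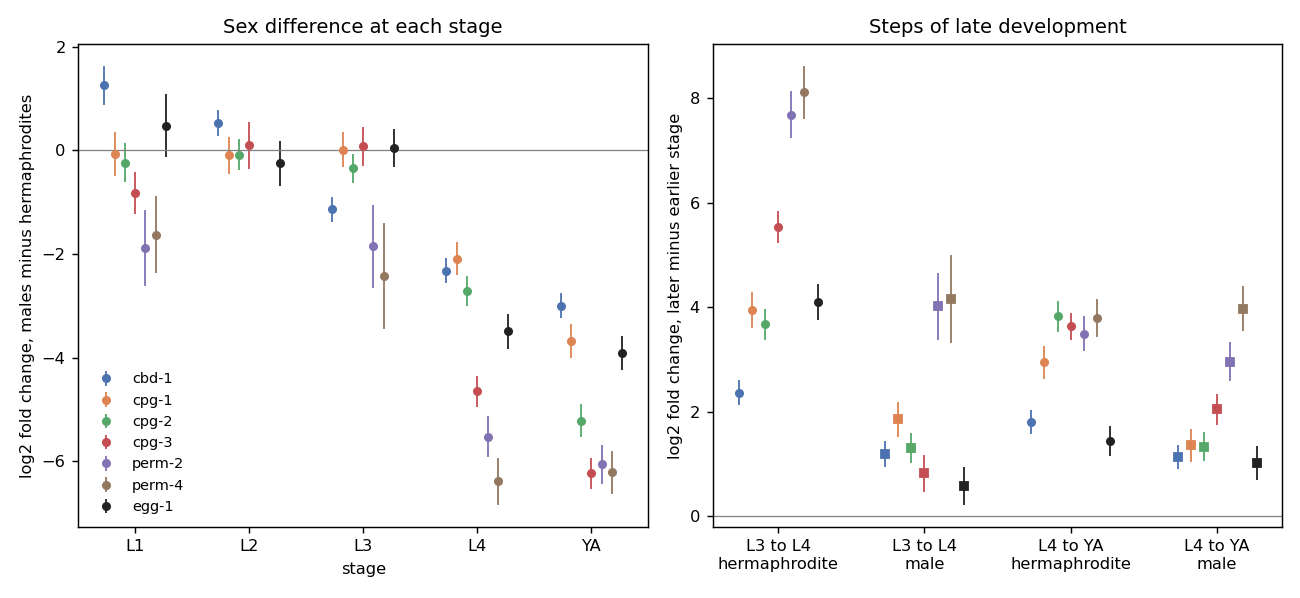
Fold changes of the 7 tested eggshell genes. Left, log2 fold change of males minus hermaphrodites at each stage; right, log2 fold change from L3 to L4 and from L4 to YA within each sex (circles, hermaphrodites; squares, males). Bars are standard errors from edgeR, and perm-2 and perm-4 are not drawn at L2, where they had 0 counts. The points lie between -2.09 and -6.39 at L4 and between -3.0 and -6.23 at YA, while at L2 they lie between -0.25 and 0.53.

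The sex difference was already present at L4. The 7 tested genes were all lower in L4 males (14.3% of all genes tested were), with log2 fold changes of -2.09 to -6.39 and a median of -3.49 (0.05 over all genes). perm-4 was at 192, 159, 155 and 193 CPM in L4 hermaphrodites and at 2.20, 1.65, 3.03 and 1.39 CPM in L4 males. Its hermaphrodite repeats were close together, unlike at YA, and the male values rested on 5 to 13 counts a library. Its log2 fold change was -6.39 (SE 0.45, adjusted p = 3.89e-13).

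perm-2 was at 179, 155, 155 and 143 CPM in L4 hermaphrodites and at 3.14, 3.12, 3.03 and 4.46 CPM in L4 males (-5.52, SE 0.39, adjusted p = 4.22e-13). cpg-3 was at 82.8, 74.2, 61.4 and 58.1 CPM against 2.82, 3.49, 3.03 and 1.39 CPM (-4.65, SE 0.30, adjusted p = 1.51e-15). In both genes the lowest hermaphrodite library was far above the highest male library. egg-1 stood at 55.1, 55.03, 66.5 and 60.7 CPM against 6.90, 5.50, 5.60 and 3.07 CPM, a log2 fold change of -3.49 (SE 0.34, adjusted p = 1.05e-10).

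cpg-2, cbd-1 and cpg-1 had the smallest differences at L4. cpg-2 was at 303, 285, 234.5 and 220.4 CPM in hermaphrodites and at 33.9, 44.4, 46.4 and 33.5 CPM in males (-2.72, SE 0.28, adjusted p = 8.45e-10). cbd-1 was at 75.6, 61.8, 108 and 103 CPM against 20.1, 16.7, 19.1 and 13.9 CPM (-2.32, SE 0.24, adjusted p = 6.46e-10). Here hermaphrodite repeats 3 and 4 were higher than repeats 1 and 2, the opposite order to cpg-2. cpg-1 showed the order of cbd-1, at 88.7, 81.0, 151 and 190.1 CPM against 27.9, 33.6, 33.8 and 24.5 CPM (-2.09, SE 0.32, adjusted p = 2.02e-06).

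chs-1 and egg-2 could not be told apart between the sexes at L4. chs-1 had 7 counts over the 4 hermaphrodite libraries and 3 over the male ones (exact permutation p = 0.257). egg-2 had 7 and 5 counts (exact permutation p = 0.8286).

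Before L4, few sex differences were called. At L3 cbd-1 was the only called gene, lower in males (0.937% of all genes tested were), and the other 6 tested genes were not called. cbd-1 was at 20.2, 19.8, 12.3 and 15.2 CPM in L3 hermaphrodites and at 7.92, 5.72, 8.23 and 8.56 CPM in L3 males. The groups did not overlap and the log2 fold change was -1.14 (SE 0.25, adjusted p = 8.90e-04). perm-2 and perm-4 had larger estimates at L3 (-1.85, SE 0.80 and -2.43, SE 1.02) on few counts, with adjusted p of 0.163 and 0.148. Both had an unadjusted p under 0.05 in the edgeR test, as cbd-1 did, and DESeq2 gave cbd-1 alone. In the fit without YA hermaphrodite repeats 1 and 4, 3 of the tested eggshell genes passed at L3. Of all genes, 784 were called in that fit, against 699 in the main fit.

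At L2 none of the 7 tested genes was called (0.703% of all genes tested were, in either direction), and each log2 fold change was between -0.25 and 0.53. At unadjusted p under 0.05 the edgeR test gave cbd-1 alone, and DESeq2 called 0 of the 7. perm-2, perm-4 and chs-1 had 0 counts in all 8 L2 libraries, which allows up to 0.123 CPM in hermaphrodites and 0.138 CPM in males (3 counts over the 4 libraries of a group, counting error only).

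At L1 cbd-1 was the only called gene and was higher in males (3.33% of all genes tested were). It was at 0.423, 0.510, 1.19 and 0.670 CPM in L1 hermaphrodites and at 1.29, 1.27, 2.07 and 1.502 CPM in L1 males, on 30 and 27 counts in all. The groups were apart but close, and the log2 fold change was 1.25 (SE 0.37, adjusted p = 0.0249). Same-numbered L1 libraries of the sexes deviated together, and with the repeat number as a block the change was 1.12 with an adjusted p of 0.0733, so the call was lost. It was also lost without L1 hermaphrodite repeat 1 or 2 or L1 male repeat 3 or 4 (adjusted p of 0.0586 to 0.173).

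perm-2 and perm-4 had counts at L1 and none at L2. perm-2 was at 1.39, 1.27, 0.239 and 0.670 CPM in L1 hermaphrodites and at 0.431, 0, 0.172 and 0.376 CPM in L1 males (-1.89, SE 0.73, adjusted p = 0.0969). perm-4 was at 0.967, 1.78, 0.597 and 0.478 CPM against 0.431, 0.319, 0.345 and 0.188 CPM (-1.63, SE 0.75, adjusted p = 0.188). Neither difference was called. The edgeR test gave an unadjusted p under 0.05 for both, for cbd-1 and for cpg-3 (-0.83, SE 0.40, adjusted p = 0.217), and DESeq2 for cbd-1 alone. Without YA hermaphrodite repeats 1 and 4 in the fit 3 of the tested eggshell genes were called at L1. Of all genes, 662 were called in that fit, against 509 in the main fit. The 6 yolk protein genes summed to 6.53 to 10.7 CPM in L1 hermaphrodites and 1.502 to 5.10 CPM in L1 males, and to 0.884 to 2.11 CPM in L2 hermaphrodites. The 9 oocyte markers summed to 3.82 to 8.48 CPM in L1 hermaphrodites and 6.95 to 13.8 CPM in L1 males. The part of maternal or adult RNA in the L1 values was not tested.

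The sex difference changed with stage in all 7 tested genes (edgeR F test of the stage by sex terms), as it did in 51.7% of all genes tested. The adjusted p was 1.67e-14 for cpg-3, 6.30e-13 for cpg-2 and 2.39e-11 for cbd-1. It was 1.62e-09 for egg-1 and 1.68e-08 for cpg-1, and it was larger for perm-2 (0.00495) and perm-4 (0.0111), whose early stages held few or no counts.

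Within hermaphrodites, the rise of the eggshell genes was spread over development in different ways. From L1 to L2, 4 of the 7 tested genes rose (14.8% of all genes tested did) and 2 fell (15.8%). cbd-1, at 0.423 to 1.19 CPM in L1, was at 6.19, 6.85, 8.03 and 6.38 CPM in L2, a log2 fold change of 3.34 (SE 0.30, adjusted p = 2.06e-11). cpg-2 rose by 1.77 (SE 0.31, adjusted p = 1.26e-05), egg-1 by 1.97 (SE 0.46, adjusted p = 5.33e-04) and cpg-1 by 1.10 (SE 0.36, adjusted p = 0.0119) on the log2 scale. Without L1 hermaphrodite repeat 4 or L2 hermaphrodite repeat 3 the call of cpg-1 was lost (adjusted p = 0.05004 and 0.113). perm-2 and perm-4 each went from 47 counts over the 4 L1 libraries to 0 at L2, at least 8.09-fold lower (adjusted p = 9.36e-05 and 2.24e-04). Over the compared libraries alone, their DESeq2 mean normalized counts were 3.59 and 3.84, below the minimum of 5.

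From L2 to L3, cbd-1, cpg-2, perm-2 and perm-4 rose in hermaphrodites (8.04% of all genes tested did). cbd-1 rose by 1.30 (SE 0.25, adjusted p = 1.78e-04) and cpg-2 by 1.24 (SE 0.29, adjusted p = 0.00219) on the log2 scale. perm-2 was at 0.556, 1.29, 0.536 and 0.491 CPM at L3, at least 6.10-fold above L2 (adjusted p = 0.00260). perm-4 was at 0.556, 0.161, 1.43 and 0.245 CPM, at least 4.96-fold above L2 (adjusted p = 0.0116), and its call was lost without L3 hermaphrodite repeat 3 (adjusted p = 0.0871). Both returned from 0 counts to levels that overlapped those of L1 hermaphrodites. Over the compared libraries alone, their DESeq2 mean normalized counts were 1.97 and 1.64, again below 5.

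The step from L3 to L4 had the largest estimate within hermaphrodites for 5 of the 7 tested genes, the exceptions being cbd-1 (L1 to L2) and cpg-2 (L4 to YA). All 7 tested genes rose in hermaphrodites (16.1% of all genes tested did). perm-4 changed most, with a log2 fold change of 8.11 (SE 0.51, adjusted p = 7.39e-15), and perm-2 followed with 7.69 (SE 0.45, adjusted p = 1.95e-15). cpg-3, which had stayed at 0.353 to 1.96 CPM in the hermaphrodite larvae up to L3, rose by 5.54 (SE 0.31, adjusted p = 1.96e-17). egg-1, cpg-1 and cpg-2 rose by 4.10, 3.95 and 3.67, and cbd-1 by 2.37 (SE 0.24, adjusted p = 1.46e-10).

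From L4 to YA the 7 tested genes rose again in hermaphrodites (21.2% of all genes tested did). cpg-2 rose by 3.83 (SE 0.29, adjusted p = 9.28e-14), perm-4 by 3.80 (SE 0.36), cpg-3 by 3.64 (SE 0.26) and perm-2 by 3.49 (SE 0.33). cpg-1 rose by 2.95 (SE 0.32), cbd-1 by 1.81 (SE 0.23) and egg-1 by 1.44 (SE 0.29, adjusted p = 6.89e-05). Without YA hermaphrodite repeats 1 and 4 all 7 were still called, at 4.39 for cpg-2, 4.42 for perm-4, 3.96 for cpg-3, 4.06 for perm-2, 2.72 for cpg-1, 1.79 for cbd-1 and 1.18 for egg-1. The all-gene median was -0.29 in that fit, against -0.02 in the main fit. It called 1693 genes as rising, against 1721. chs-1 went from 0.171 to 0.660 CPM at L4 to 2.16 to 8.63 CPM at YA, and egg-2 from 0.211 to 0.495 CPM to 1.23 to 3.69 CPM. Neither pair of ranges overlapped (exact permutation p = 0.0286 for each). YA repeats 2 and 3 alone were also above every L4 library in both genes.

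In males, all 7 tested eggshell genes were called as rising from L4 to YA, and fewer of them at the earlier steps. From L1 to L2, cbd-1, cpg-1 and cpg-2 rose in males (10.9% of all genes tested did), by 2.62 (SE 0.31), 1.08 (SE 0.42) and 1.92 (SE 0.36) on the log2 scale. The call of cpg-1 rested on an adjusted p of 0.0480 and was lost when any 1 of the 4 L1 male libraries was left out (0.0527 to 0.1195). In the fit without YA hermaphrodite repeats 1 and 4, 5 of the tested eggshell genes were called. Of all genes, 1714 were called in that fit, against 1560 in the main fit. From L2 to L3 only egg-1, 1 of the 7 tested genes, was called, a share near the 11.3% of all genes tested that rose. egg-1 went from 1.46, 2.06, 1.07 and 1.39 CPM to 3.44, 2.57, 3.85 and 4.08 CPM. The groups did not overlap (1.26, SE 0.41, adjusted p = 0.0243), but the call was lost without L2 male repeat 1, 3 or 4 or L3 male repeat 3 or 4 (adjusted p of 0.0551 to 0.105).

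From L3 to L4, cbd-1, cpg-1, cpg-2, perm-2 and perm-4 rose in males (15.9% of all genes tested did). cpg-1 rose by 1.85 (SE 0.33, adjusted p = 2.13e-05), cpg-2 by 1.30 (SE 0.28) and cbd-1 by 1.18 (SE 0.25). perm-2 rose by 4.02 (SE 0.64, adjusted p = 6.14e-06). perm-4 had 2 counts over the L3 male libraries and 34 over the L4 ones, a ratio of 21.7 (95% counting interval 5.55 to 186, adjusted p = 1.87e-04). Its DESeq2 mean normalized count over the compared libraries alone was 4.85, below 5. cpg-3 (0.82, SE 0.36, adjusted p = 0.0692) and egg-1 (0.57, SE 0.36, adjusted p = 0.220) were not called.

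From L4 to YA the 7 tested genes rose in males (10.1% of all genes tested did). perm-4 rose by 3.97 (SE 0.43, adjusted p = 6.28e-09) and perm-2 by 2.96 (SE 0.37, adjusted p = 1.22e-07). cpg-3 followed with 2.05 (SE 0.29), and cpg-1, cpg-2, cbd-1 and egg-1 with 1.35, 1.33, 1.13 and 1.01. The call of egg-1 was lost without L4 male repeat 4 or YA male repeat 1 (adjusted p = 0.0822 and 0.0529). chs-1 and egg-2 did not differ detectably between L4 and YA males (exact permutation p = 0.771 and 0.257).

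As a share of the hermaphrodite mean, the level in YA males differed between the eggshell genes. It was 1.33% for cpg-3, 1.35% for perm-4, 1.502% for perm-2 and 2.70% for cpg-2. It was higher for egg-1 (6.64%), cpg-1 (7.79%) and cbd-1 (12.5%), and the ranges over the male libraries of these last genes did not reach down to those of the first ones. On few counts, chs-1 was at 4.14% and egg-2 at 21.7%, the highest share of the 9 genes. Without hermaphrodite repeats 1 and 4 the shares were 0.868% for perm-4, 1.003% for perm-2, 1.05% for cpg-3 and 1.81% for cpg-2, so that the order of the lowest genes turned. They were 7.85% for egg-1, 8.99% for cpg-1 and 12.5% for cbd-1, and on few counts 7.10% for chs-1 and 23.5% for egg-2. For comparison, the 6 yolk protein genes were at 1.02% to 2.46% and the 9 oocyte markers at 1.67% to 21.3% (median 5.71%) over all 4 repeats.

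At L4 the shares were 1.18% for perm-4, 2.18% for perm-2, 3.88% for cpg-3, 8.88% for egg-1, 15.2% for cpg-2, 20.04% for cbd-1 and 23.5% for cpg-1. perm-4, perm-2 and cpg-3 were again lowest, cpg-2 stood closer to cbd-1 and cpg-1 than at YA, and the yolk protein genes were at 0.029% to 2.62%. How far remaining XX animals contribute to the male values was not tested.

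**Figure D3:**
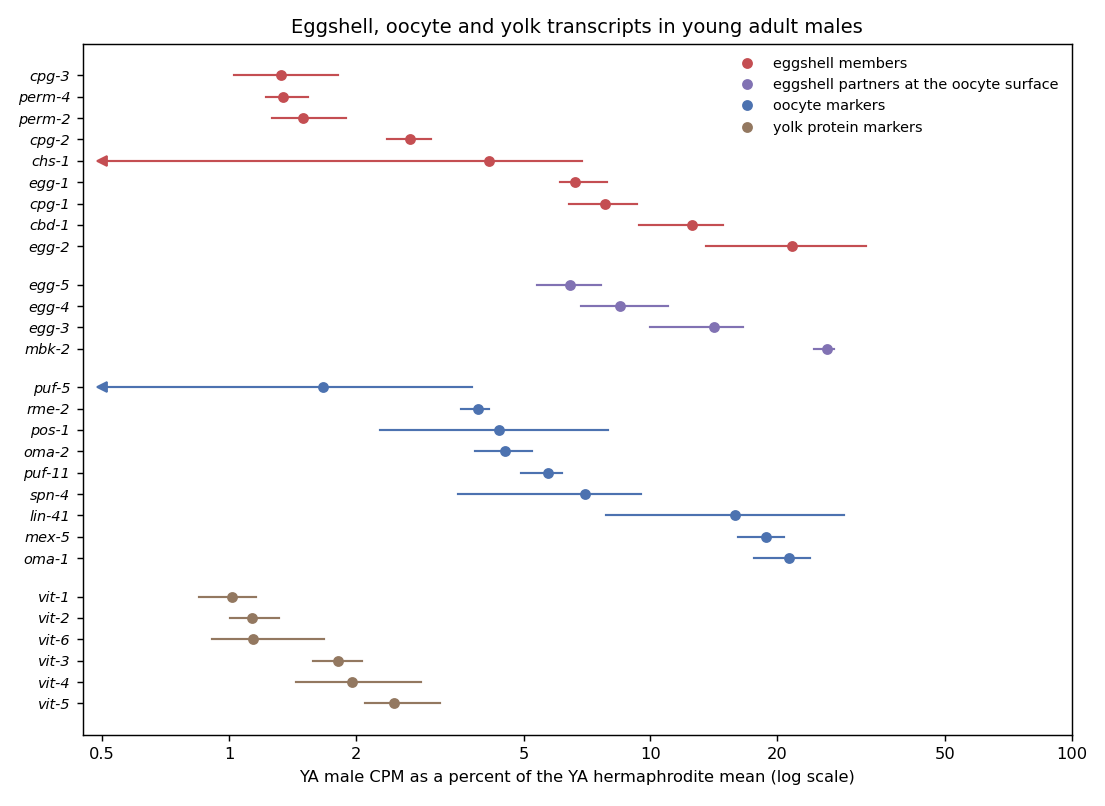
Transcripts in YA males relative to YA hermaphrodites. The horizontal axis is the CPM in males as a percent of the mean of all 4 hermaphrodite libraries (log scale), points are the means of the 4 male libraries, bars run from the lowest to the highest male library and arrowheads mark a library at 0. cpg-3, perm-4 and perm-2 lie at 1.33% to 1.502%, within the range of the yolk protein genes, cbd-1 at 12.5% and egg-2, on few counts, at 21.7%.

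The order of the 10 groups was close to common. In 8 of the 9 genes YA hermaphrodites came first and L4 hermaphrodites second by mean level. In egg-2 YA males were second, with values that overlapped those of L4 hermaphrodites. YA hermaphrodites were above every other library in all 9 genes. YA males came next in the 7 tested genes, apart from L4 hermaphrodites in all of them but cpg-1, where L4 hermaphrodites (81.0 to 190.1 CPM) and YA males (63.3 to 91.3 CPM) overlapped. The lower ranks overlapped in most genes. Across the 10 group means of log2 CPM, perm-2 and perm-4 were the most alike pair (Pearson r = 0.998) and cbd-1 and perm-4 the least alike (r = 0.835), over points that share the same libraries.

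Within libraries, pairs of genes kept their ratio to different degrees. The count of perm-4 over that of perm-2 was 0.998 to 1.35 in L4 hermaphrodites, 1.19 to 1.52 in YA hermaphrodites and 1.11 to 1.49 in YA males. In L4 males, on 5 to 13 counts of perm-4 a library, it was lower and wider (0.3125 to 1.0). The ratio of cpg-2 to perm-2 was 1.51 to 1.84 in L4 hermaphrodites, 1.77 to 2.42 in YA hermaphrodites and 2.91 to 4.95 in YA males. The ratio of cpg-2 to cpg-1 moved most between repeats of a group. It was 1.56, 5.66, 7.45 and 1.80 in YA hermaphrodites and 3.42, 3.51, 1.56 and 1.16 in L4 hermaphrodites, but 1.10 to 1.55 in YA males.

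The spread among the YA hermaphrodite repeats differed between the eggshell genes. The highest repeat was 3.83 times the lowest for cpg-2, 3.75 times for perm-4, 3.41 times for perm-2 and 2.33 times for cpg-3, and in these 4 genes repeats 2 and 3 were both above repeats 1 and 4. It was 1.29 times for cbd-1, 1.74 times for cpg-1 and 2.11 times for egg-1, in which repeat 4 was the highest. chs-1, on few counts, had the widest spread of the 9 genes (4.00 times) and ran the other way, with repeats 1 and 4 above repeats 2 and 3. egg-2 spread over 2.99 times and was lowest in repeat 2. Beside them, the yolk receptor gene rme-2 was at 171, 907, 961 and 324 CPM in these repeats and the yolk protein genes summed to 8411, 19065, 22450.2 and 9499 CPM. The sperm phosphatase gene gsp-3 was at 72.6, 2.47, 5.22 and 64.0 CPM and the male-enriched gene clec-207 at 24.3, 0.308, 0 and 22.8 CPM. The 7 sperm markers, gsp-3 among them, summed to 178, 116, 135 and 181 CPM, a narrower split than that of gsp-3. The TMM factors of these repeats were 1.03, 0.595, 0.534 and 1.03, so the scaling raised repeats 2 and 3 relative to repeats 1 and 4. Before this scaling the 9 genes made up 0.529%, 0.859%, 0.760% and 0.735% of the counts, with repeat 4 close to repeat 3. The part of male animals, of animal age, of depth or of scaling in this split was not tested.

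**Figure D4:**
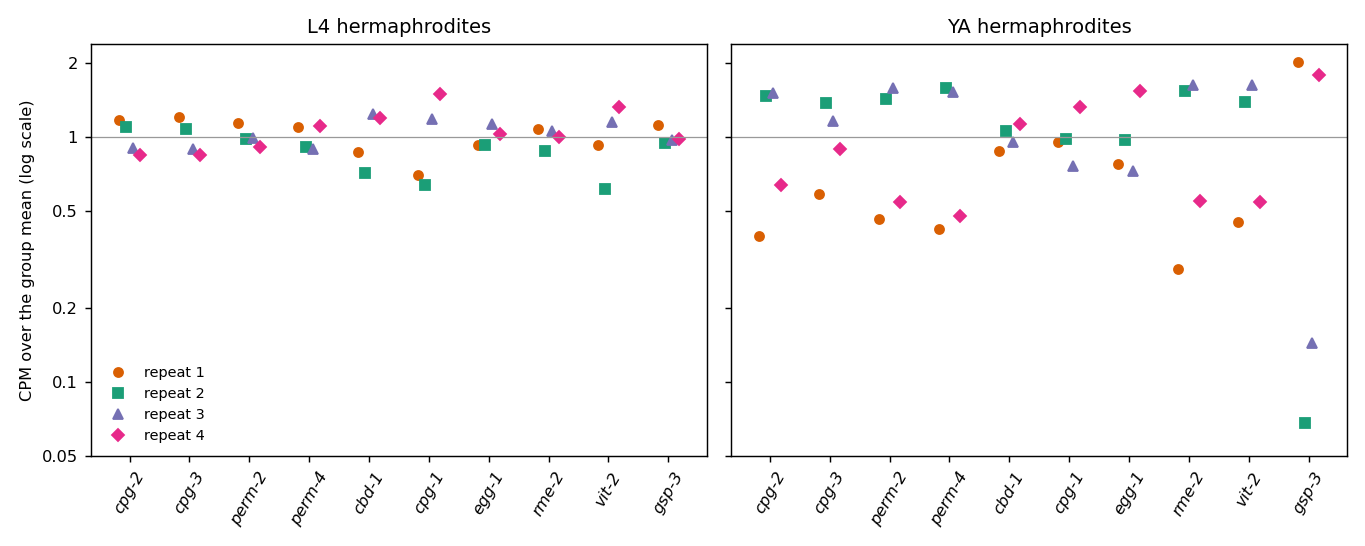
Spread of the 4 repeats of L4 (left) and YA (right) hermaphrodites for the 7 tested eggshell genes and 3 markers. The vertical axis is the CPM of a library divided by the mean of its group (log scale), and each symbol is a repeat. In YA hermaphrodites cpg-2, cpg-3, perm-2, perm-4, rme-2 and vit-2 are low in repeats 1 and 4, gsp-3 is high in them, and cbd-1, cpg-1 and egg-1 are not low in repeat 4.

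Genes of the wider eggshell program were read from lists of known members. Of 4 partners at the oocyte surface, egg-4, egg-5 and mbk-2 were lower in YA males (22.1% of all genes tested were), with or without hermaphrodite repeats 1 and 4. EGG-4 and EGG-5 are pseudophosphatases that hold back the kinase MBK-2 until the oocyte matures. egg-5 averaged 134 CPM in hermaphrodites and 8.60 CPM in males (-3.96, SE 0.27, adjusted p = 1.37e-14), and egg-4 168 and 14.2 CPM (-3.56, SE 0.27). mbk-2 averaged 381 and 99.7 CPM at YA (-1.93, SE 0.26), but at L4 it was not called (0.65, SE 0.25). egg-3, whose protein anchors CHS-1 and MBK-2 at the cortex, averaged 3.47 and 0.490 CPM and had too low a mean count for a call (-2.77, SE 0.61, adjusted p = 3.60e-04).

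Of the enzymes that make the sugar precursor of chitin, 2 were tested and both were lower in YA males, beside 22.1% of all genes tested. gfat-2, an isoenzyme of the entry step of the hexosamine pathway, averaged 15.2 CPM in hermaphrodites and 2.67 CPM in males (-2.51, SE 0.47, adjusted p = 1.91e-05), and gfat-1 18.2 and 8.24 CPM (-1.15, SE 0.45, adjusted p = 0.0290). Without hermaphrodite repeats 1 and 4, gfat-2 was still called (-1.89, SE 0.52) and gfat-1 was not (adjusted p = 0.0598). gfat-2 rose from L4 to YA in both sexes (2.98, SE 0.50 in hermaphrodites and 2.77, SE 0.68 in males), and by 2.35 (SE 0.54) in hermaphrodites without those repeats. chs-2, the chitin synthase of the pharynx, had no called sex difference at YA (0.92, SE 0.64, adjusted p = 0.227) and fell from L4 to YA by 3.00 (SE 0.55) in hermaphrodites and by 2.20 (SE 0.44) in males on the log2 scale.

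Of 6 tested genes of chondroitin synthesis, 3 were lower in YA males (22.1% of all genes tested were), and the other 3 were not called. sqv-5, the chondroitin synthase, averaged 139 CPM in hermaphrodites and 17.8 CPM in males at YA (-2.96, SE 0.37, adjusted p = 1.31e-08) and was not called at L4 (-0.06, SE 0.36). Its partner mig-22 (-1.45, SE 0.54, adjusted p = 0.0209) and the UDP-glucose dehydrogenase gene sqv-4 (-1.41, SE 0.45, adjusted p = 0.00749) were the others. Without hermaphrodite repeats 1 and 4 the call of sqv-4 at YA was lost (-0.86, SE 0.54, adjusted p = 0.182). sqv-4 had been higher in males at L4 (1.62, SE 0.48, adjusted p = 0.00684).

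Other chondroitin proteoglycan core genes moved in both directions. Of the 4 tested, cpg-8 (-4.08, SE 0.20, adjusted p = 1.66e-18), cpg-4 (-3.65, SE 0.40) and cpg-9 (-3.59, SE 0.58) were lower in YA males and cpg-7 was higher in them, as were 22.5% of all genes tested (1.45, SE 0.22, adjusted p = 6.72e-07). cpg-7 averaged 690.0 CPM in YA males and 252 CPM in YA hermaphrodites, and it fell from L4 to YA in both sexes. All 4 were called in the same direction without hermaphrodite repeats 1 and 4. Of 5 tested genes of the permeability barrier beneath the eggshell, only emb-8, a cytochrome P450 reductase gene, was called lower in males at YA (-1.12, SE 0.46, adjusted p = 0.0352), a share near the 22.1% of all genes tested. This list turned on hermaphrodite repeats 1 and 4. Without them emb-8 was not called (adjusted p = 0.183), while pod-2 was lower in males (-1.33, SE 0.32, adjusted p = 4.73e-04) and perm-3 (2.19, SE 0.23, adjusted p = 1.76e-10) and perm-5 (1.56, SE 0.45, adjusted p = 0.00321) were higher. In that fit the all-gene median was 0.38, and 2350 genes were called higher in males, against 1824 in the main fit.

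Outside these lists, the genes whose 10 group means were most like the mean profile of the 7 tested eggshell genes were C05C10.5, mex-6, mex-1 (Pearson r = 0.991 each), C27D9.1 and Y54F10AM.11 (r = 0.988 each). mex-1 and mex-6 encode CCCH zinc finger proteins of the early embryo. mex-1 had geometric means of 515 CPM in YA hermaphrodites, 48.9 CPM in L4 hermaphrodites and 23.0 CPM in YA males. The groups share libraries and the genes share the rise in YA hermaphrodites, so these values are a description.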

How the data were processed

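Whole-animal RNA was sequenced with a bulk version of MARS-seq, which counts 3′ ends with unique molecular identifiers (UMI). Per the labels and the study's methods, the authors trimmed reads with cutadapt, aligned them to WBcel235 with STAR 2.4.2a and counted them per gene with HTSeq in union mode after marking UMI duplicates, with an annotation release that no source used here states. The deposited raw UMI counts of 40 libraries and 11933 genes were used. The 120 columns of values the authors normalized or transformed and 315 columns of their own comparisons (fold changes and p-values) were not used. Coordinates are from Ensembl release 115 (WBcel235).

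The main test was run in edgeR 4.0.16 under R 4.3.3 (filterByExpr at a count minimum of 10 and a total minimum of 15, TMM, 10 group means over 40 libraries, glmQLFit and glmQLFTest). Of the genes, 8110 were tested and 3823 fell below the filter, and p-values were adjusted by Benjamini-Hochberg over all genes tested. A call needed an adjusted p of at most 0.05, a log2 fold change of at least 1 in size and a mean normalized count of at least 5, the cut-off values of the study. The mean count was taken here over all 40 libraries, while the study tested the sexes stage by stage. Standard errors are the log2 fold change divided by the square root of F. DESeq2 1.42.0 was an alternative. Summaries and plots were made with Python 3.11.15, pandas 2.3.3 and matplotlib 3.10.9. The tests were checked on simulated counts.

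The labels call the 4 libraries of a group biological repeats. The edgeR p-values rest on a spread estimated for each gene over the repeats of all 10 groups, not of the compared groups alone. Libraries left out of a group can therefore change calls between other groups. DESeq2 and the permutation tests used only the compared groups. Same-numbered libraries of the sexes deviated together at L1 (correlations of 0.587, 0.136, 0.371 and 0.273). Repeat numbers were taken to pair libraries where all 4 correlations were above 0.1, which held at L1 only. This pairing is uncertain: repeat 2 correlated more with a library of another number (0.348) and repeat 4 nearly as much (0.240). The members, the gene lists and the YA hermaphrodite repeats left out were chosen with earlier results of these data known. The text names the 9 members, called genes of the wider lists, markers, and the 5 tested genes outside the lists most correlated with the mean profile of the members; egg-3 and chs-2 were added after their values were seen. A group with 0 counts was set at 3 counts over its 4 libraries for lower bounds of fold changes.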

Additional observations from a re-analysis of the deposited data

Results flagged for a closer look

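In sets of 4 libraries, a library stood apart from the others by Dixon's limit in 3 of 58 gene and group sets checked, and chance gives about 1 in 20. The highest library of cpg-2 in L3 hermaphrodites was 28.2 CPM beside 17.1 to 18.9 CPM (gap over range 0.838). The highest library of perm-2 in L4 males was 4.46 CPM beside 3.03 to 3.14 CPM (0.928), a difference of 16 counts against 10 to 17. The highest library of egg-1 in YA males was 12.7 CPM beside 9.78 to 10.2 CPM (0.847).

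The difference between the sexes changed with stage for each tested eggshell gene by the edgeR F test, with adjusted p of 2.39e-11 for cbd-1, 1.68e-08 for cpg-1, 6.30e-13 for cpg-2, 1.67e-14 for cpg-3, 1.62e-09 for egg-1, 0.00495 for perm-2 and 0.0111 for perm-4. cbd-1 was the gene with called differences of opposite sign, higher in males at L1 (1.25) and lower in them from L3 on (-1.14 at L3), but the L1 call was lost with the replicate block (adjusted p = 0.0733), with DESeq2 and in 4 of the fits that left out a library.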

How the results depend on the processing

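Of 56 called single-gene results (2625 values under alternatives), 2579 values kept their direction and call, 46 lost the call and 0 changed sign. Most of these values came from fits that left out a single library, usually outside the compared groups, so this tally says little about stability. Among the other settings, DESeq2 lost 7 of the 56 calls and thinning lost 6. The counts of called members at L4 and YA between the sexes, and from L3 to L4 and L4 to YA in hermaphrodites, stayed at 7 in each fit that left out a library. At L1 the count between the sexes was 2 after thinning to the smallest library, 0 with the replicate block within stage, 0 with the compared groups alone (where 2 members passed the filter and cbd-1 did not), 0 with DESeq2, and 3 without YA hermaphrodite repeats 1 and 4. It ranged from 0 to 2 when single libraries were left out. Without YA hermaphrodite repeats 1 and 4 it was 3 at L3, and 5 for males from L1 to L2. Of all genes, that fit called 662 at L1, 784 at L3 and 1714 for males from L1 to L2. The main fit called 509, 699 and 1560. At L1, 238 genes were called after thinning, 224 with the compared groups alone and 384 with DESeq2. With the compared groups alone the count of called members was 2 for hermaphrodites from L1 to L2 and 2 from L2 to L3, where DESeq2 also gave 2. The all-gene counts with the compared groups alone were 2028 and 601 in these steps, against 2483 and 841 in the main fit. DESeq2 called 673 genes from L2 to L3. For males from L2 to L3 the count of called members was 0 without the filter and 0 after thinning, and 0 to 2 when single libraries were left out. The all-gene counts there were 1022 without the filter and 615 after thinning, against 1061 in the main fit. DESeq2 lost perm-2 and perm-4 in the early steps because their mean counts over the 8 compared libraries (1.64 to 4.85) fell below 5, with adjusted p of 4.45e-04 to 0.0412. The call of cpg-1 in males from L1 to L2 was also lost without L1 hermaphrodite 2, L2 male 3 or 4, L3 male 3 or 4, L4 male 2 or YA male 1. Elsewhere the cause was not tested. The replicate block within sex lost the call of cpg-1 in males from L1 to L2 (1.05, adjusted p = 0.0638), and the block changed no other call than this one and cbd-1 at L1. Scaling by DESeq2 size factors moved the all-gene median of the log2 fold changes from 0.05 to 0.21 at L4 and from 0.00 to 0.18 at YA between the sexes. It moved the share of calls that were higher in males from 49.6% to 60.3% at L4 and from 53% to 66.5% at L1, and the share that rose in males from L1 to L2 from 56.9% to 42.5%. Depth limits what can be said of chs-1 and egg-2, and of perm-2 and perm-4 before L4.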
